A study of Mus musculus with 8 samples.

Results

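The miR-290 to miR-295 microRNA cluster lies on mouse chromosome 7 beside a super-enhancer, and the loops described here are those that touch its neighbourhood. Members were all loops with at least 1 anchor in chromosome 7, 3.1 to 3.4 Mb (GRCm38, the build named mm10 in the submitters' notes), and there were 250 of them among 415681 loops. H3K27ac HiChIP, which joins ligated DNA ends from chromatin carrying the active-enhancer mark acetylated lysine 27 of histone H3, had been run on 4 mouse embryonic stem cell lines with 2 libraries each. Line B6 5-1 is C57BL/6J (B6) and line D2 5-5 is DBA/2J (D2). Line QJ 6-1 is the congenic B6.D2-(rs30079041-rs51756099)/Bakr (B6-13D2), a B6 genome with a D2 interval on chromosome 13, and line XE 2-4 is the reciprocal congenic D2.B6-(rs29224292-rs13469455)/Bakr (D2-13B6). The series text names rs51756099 as the second end of the XE interval, so its right border is not settled here. All 4 lines were grown in 15% serum with LIF, 1 µM PD0325901, a MEK inhibitor, and 3 µM CHIR99021, a GSK3 inhibitor. Each strain was represented by a single line, and both libraries of a line are labelled technical replicates, so the edgeR p-values measure only the spread between libraries of one line, and strain and line cannot be told apart. The window on chromosome 7 lies outside the chromosome 13 interval.

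In mouse embryonic stem cells this cluster is transcribed as a single primary transcript and gives the most abundant microRNAs of the cell, which promote the passage from G1 to S phase by repressing cell-cycle inhibitors. Its super-enhancer is a group of closely spaced enhancers occupied by Oct4, Sox2 and Nanog and rich in Mediator. Nlrp12, a regulator of innate immune signalling, overlaps the cluster on the opposite strand, and Myadm, a membrane protein first described in myeloid differentiation, lies to its right.

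The reference tables held 17 mature microRNAs of the cluster, all within 2.22 kb (chr7:3218626-3220841). The seeds, bases 2 to 8, are shown because they define the family; 6 of the 17 carry the letters AGUGC in the seed. The cluster's miR-292a-3p was not analysed here. The 5 below, all 3p arms from the plus strand (RefSeq, GRCm38.p6), have the seed in capitals, and miR-291a-3p, miR-294-3p and miR-295-3p share the same one, AAGUGCU.
mmu-miR-290a-3p: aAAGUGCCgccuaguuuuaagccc
mmu-miR-291a-3p: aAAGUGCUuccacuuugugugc
mmu-miR-291b-3p: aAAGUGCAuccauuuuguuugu
mmu-miR-294-3p: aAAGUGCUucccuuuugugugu
mmu-miR-295-3p: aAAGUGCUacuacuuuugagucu

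The loop table places 7 anchors in the window, built from 33 listed bins of 5 kb. The cluster lies in an anchor of 60 kb (chr7:3180001-3240000), called the Mir290 anchor below, which also overlaps the body of Nlrp12 and held 8126 counts in 54 loops, rank 109 of 30044 anchors. To its left is an anchor of 15 kb over the start of AU018091 (chr7:3160001-3175000). To its right come a 5-kb anchor within 5 kb of the Nlrp12 start (chr7:3250001-3255000), an anchor of 45 kb over the start of Myadm (chr7:3260001-3305000), and an anchor of 30 kb over the body of Cacng7, a calcium channel gamma subunit gene (chr7:3345001-3375000). A 5-kb anchor lies in the noncoding gene Gm44257, within 5 kb of the start of Cacng8 (chr7:3385001-3390000). The seventh anchor, near Gm7353 (chr7:3105001-3110000), held 43 counts in all and was not tested. The bins that hold the starts of Nlrp12, Cacng7 and Cacng8 are not listed in the files, so contacts of those starts themselves are not described.

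The most counted bin of the window, 13.6 to 18.6 kb to the left of the Mir290a start (chr7:3200001-3205000), held 1587 counts. A stretch of it (chr7:3201331-3201490, plus strand, GRCm38) is shown because 2 of the motifs searched lie within its 160 bases, in capitals: a Sox element, searched as CATTGTT, and a Stat element, searched as TTCCNGGAA, both on either strand and not overlapping. It was read from the C57BL/6J reference and not from any of the libraries.
Mir290 anchor, most counted bin: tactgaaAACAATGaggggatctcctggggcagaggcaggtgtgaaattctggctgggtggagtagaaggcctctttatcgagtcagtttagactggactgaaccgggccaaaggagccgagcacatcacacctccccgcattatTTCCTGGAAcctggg
Among all 54464 listed bins, 56.1% held CATTGTT and 13.5% held TTCCNGGAA. Of the 12 bins of the Mir290 anchor, 4 held each of them, 3 held the octamer ATGCAAAT, present in 27.2% of all bins, and 1 held the Esrrb element TCAAGGTCA, present in 14.9%. A Klf element, CCACACCC, was in 4 of the 12 and in 34.5% of all bins, and a GC box, GGGCGG, in 6 of the 12 and in 55.3% of all bins.

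The Myadm anchor holds a start of Myadm, and the bases upstream of its first exon there (chr7:3290305-3290533, plus strand, RefSeq, GRCm38.p6) are shown for comparison, with GC boxes (GGGCGG, either strand) in capitals. Another annotated Myadm transcript starts further left, at base 3289080.
Myadm upstream: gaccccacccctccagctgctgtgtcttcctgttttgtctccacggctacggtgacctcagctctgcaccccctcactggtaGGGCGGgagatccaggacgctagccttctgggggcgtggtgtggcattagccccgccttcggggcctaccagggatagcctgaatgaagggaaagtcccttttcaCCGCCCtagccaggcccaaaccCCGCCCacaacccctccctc
This stretch of 229 bases held 3 GC boxes. Of 32851 promoters with 250 upstream bases, 32.7% held at least 1.

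Library totals ran from 737955 to 1425304 counts, and all 4 congenic libraries were deeper than all 4 parental ones. Over all loops, the share of counts inside a single anchor was 30.3% ± 1.42 (SD, n = 2) in B6 and 30.2% ± 0.933 (SD, n = 2) in D2, against 33.1% ± 0.482 (SD, n = 2) in B6-13D2 and 32.98% ± 0.170 (SD, n = 2) in D2-13B6. Depth and this share therefore moved with the contrast of congenic against parental lines, and their part in the results below was not tested. DBA/2J reads were placed on a C57BL/6J reference, and the effect of that on counts was not tested. All 10 embryonic stem cell markers checked had an anchor at their start, with a median of 459 CPM (a count divided by the library total after TMM scaling, times 1000000). Their summed level was 3921 CPM in B6 and 4198 in D2, against 4230 in B6-13D2 and 5228 in D2-13B6 (means of 2 libraries), the same order of lines as inside the Mir290 anchor below. For these 10, the interaction, defined below, was called lower at 3 (3.73% of all anchors) with a median of -0.36, and the background effect higher at 5 (11.9%) and lower at 0 (13%). Their part in the results below was not tested. No anchor stood at the start of any of the 6 primitive endoderm or 6 neural markers, and 1 of 6 trophoblast markers had one. Of 8 feeder fibroblast markers 6 had an anchor, of which 2 passed the count minimum. The 6 together had 58.1 to 94.5 CPM per library (line means 63.5 to 88.2), while Thy1 and Twist1 had none.

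Most contacts of the neighbourhood were short. The 4 loops that join an anchor to itself held 7553 of the 16200 member counts (46.6%), and the 19 loops between different anchors of the window held 31.6%. Loops to anchors outside the window held 14.5% under 500 kb (75 loops) and 7.23% at 500 kb or more (152 loops). A minimum of 5 counts in at least 2 libraries was met by 54 of the 250 members; the other 196 held 7.22% of the counts and 50 of these were a single count. To the right, 46 of the 48 anchors at 3.4 to 5.4 Mb were joined to the window by at least 1 count, 45 of them to the Mir290 anchor and 42 to the Myadm anchor. Only 3 partner anchors lay to its left, where the listed bins begin at base 3000001.

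**Figure D1:**
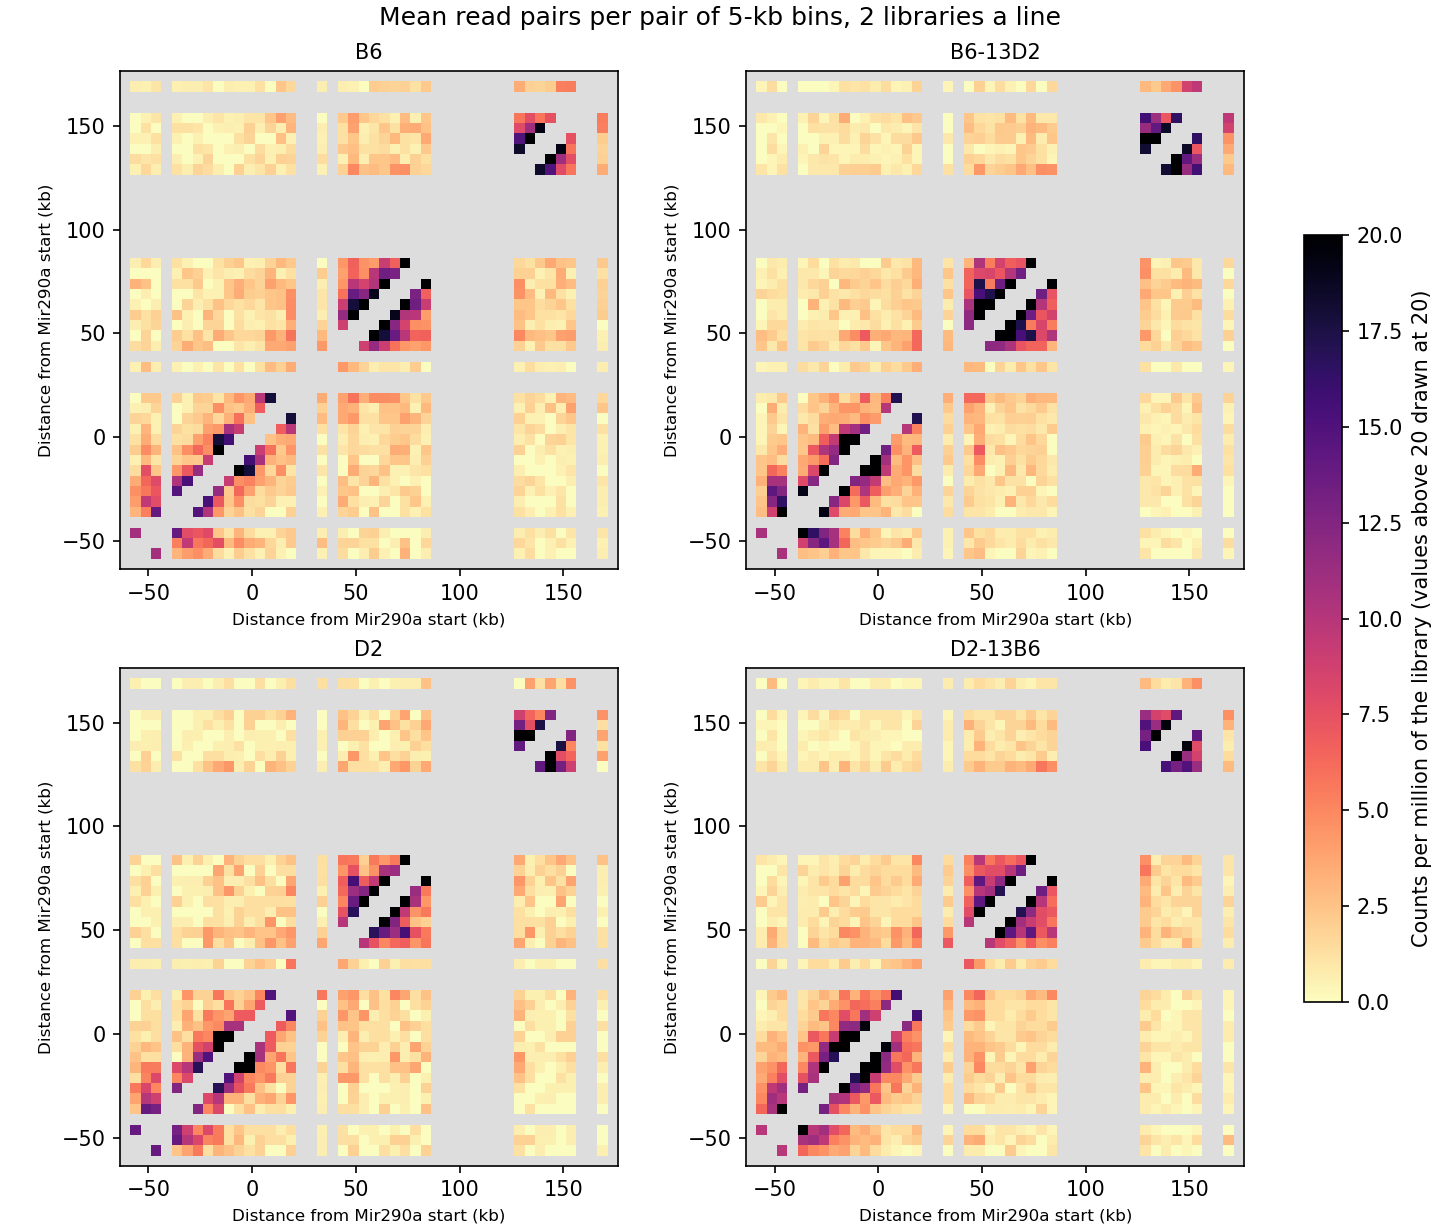
Counts per pair of 5-kb bins, in CPM of the library total, averaged over 2 libraries, in each line; both axes give the distance from the Mir290a start in kb, and grey marks bins not listed and pairs closer than 10 kb. The blocks near the diagonal are contacts inside the Mir290, Myadm and Cacng7 body anchors. Colours stop at 20; the strongest pair had 38.5 in B6 and 46.6 in D2, against 41.4 in B6-13D2 and 67.6 in D2-13B6.

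The 250 loops took 0.184% and 0.172% of the counts of the B6 libraries and 0.179% and 0.175% of those of D2. The congenic libraries gave 0.197% and 0.203% in B6-13D2 and 0.197% and 0.204% in D2-13B6, so each of these 4 lay above each of the 4 parental libraries. Between libraries with the D2 and the B6 form of the chromosome 13 interval, the share differed by -0.000793 percentage points (p = 0.943 and adjusted p = 0.971 over 2 comparisons, by a two-sided exact permutation of 4 libraries against 4). Between D2 and B6 backgrounds it differed by -0.000505 points (p = 0.971 and adjusted p = 0.971, by the same exact permutation). This test exchanges libraries across lines and counts both technical replicates of a line separately. The smallest p it can give is 0.0286, or 0.0556 when libraries are exchanged only within a replicate number, and with the 4 lines as units, 2 against 2, no p under 0.05 is possible. Both differences are far smaller than the SD of the 4 libraries on either side, 0.0135 to 0.0138 points, which includes the gap between congenic and parental lines.

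Contacts inside the 60-kb Mir290 anchor were the largest loop of the neighbourhood, with 3448 counts. They stood at 292 and 287 CPM in the B6 libraries and at 361 and 339 CPM in D2. The congenic B6-13D2 had 409 and 392 CPM, and D2-13B6 had 482 and 572 CPM. The libraries of the 4 lines did not overlap, with B6 lowest, then D2, then B6-13D2, and D2-13B6 highest. B6-13D2 exceeded B6 by 0.46 ± 0.13 (SE) on the log2 scale (edgeR quasi-likelihood test with Benjamini-Hochberg adjustment over all loops, FDR = 0.035). That call was lost when any of the libraries of B6, B6-13D2 or D2-13B6 was left out, with the replicate number as a block (0 members called) and with library totals alone. D2 was below D2-13B6 by a log2 fold change of -0.59 ± 0.12 (SE; edgeR, FDR = 0.00047), a call lost without D2 replicate 2 or D2-13B6 replicate 2. D2 against B6 gave 0.27 ± 0.13 (SE; edgeR, FDR = 0.34), which did not pass.

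With all 8 libraries, 3 summary contrasts were formed: the interval effect (D2 over B6 form of the chromosome 13 interval, averaged over backgrounds), the background effect (D2 over B6 genome elsewhere, averaged over intervals) and the interaction (the interval effect on the D2 background minus that on the B6 background). A negative interaction means that the congenic lines together exceed the parental lines. The comparisons share libraries and are not independent of each other. For contacts inside the Mir290 anchor, the interval effect was -0.06 ± 0.09 (SE; edgeR, FDR = 0.88). The background effect was 0.33 ± 0.09 (SE; edgeR, FDR = 0.0033), higher on D2 backgrounds, and was lost without D2-13B6 replicate 2 and with no count minimum. The interaction was -1.05 ± 0.18 (SE; edgeR, FDR = 3.3e-06) and passed in all 15 alternatives tried.

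Large, strongly contacted anchors elsewhere showed the same direction. Over the 167 tested loops inside an anchor of 50 to 70 kb, the median interaction was -0.39 with 24.0% called, and 5% of them lay below -1.08, against a median of -0.04 over all 44706 tested loops. Of the same 167 loops, 44.9% were called for the background effect, 14.4% in B6-13D2 against B6 and 23.4% in D2 against D2-13B6, so calls were common at this anchor size in each of these contrasts. The interaction inside the Mir290 anchor lay near the lower end of the range of anchors of its size, and no test of a difference from them was made.

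**Figure D2:**
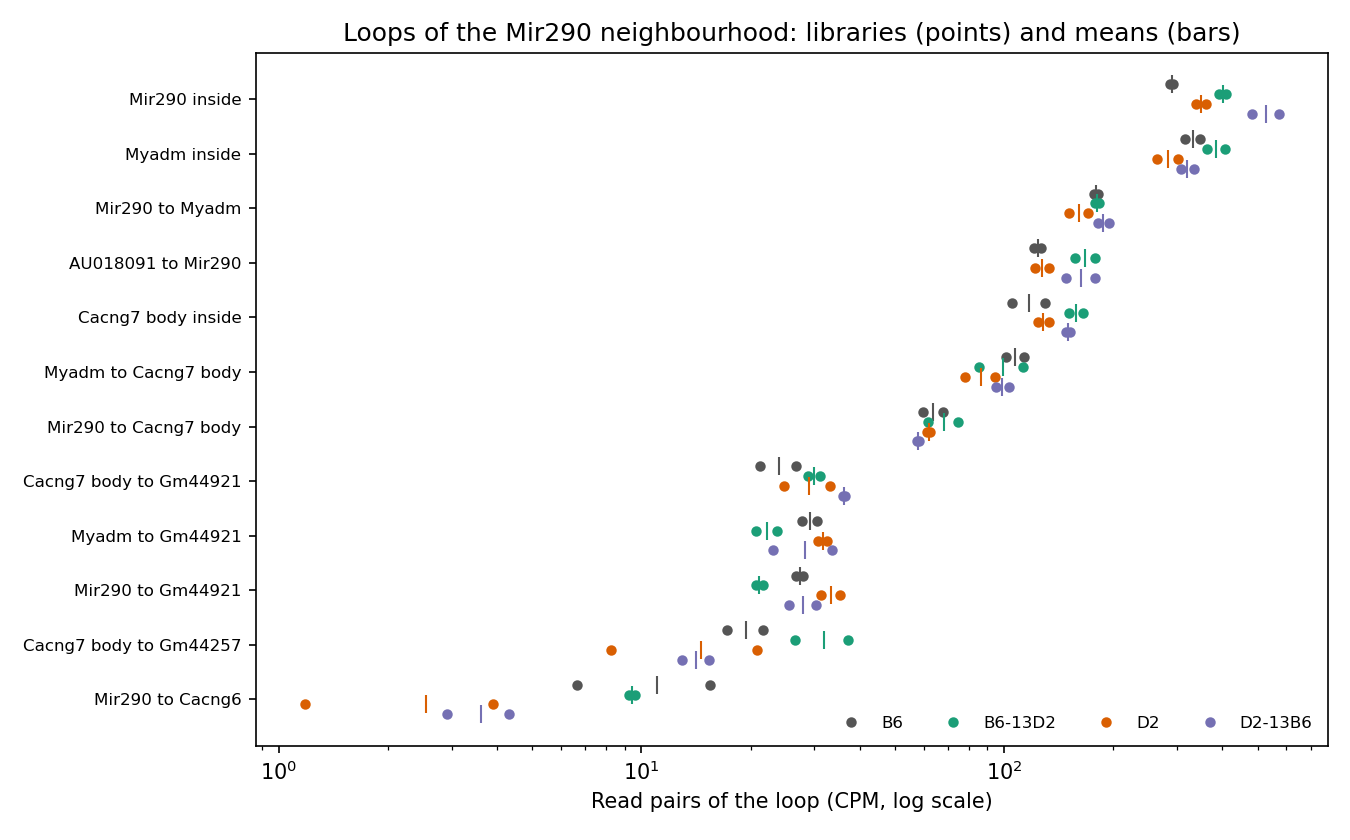
CPM (log axis) of the most counted and the called loops of the neighbourhood; each point is a library, each short bar the mean of 2 libraries, and colours mark the 4 lines. Inside the Mir290 anchor the lines are ordered from B6 at 287 and 292 to D2-13B6 at 482 and 572, while Mir290 to Myadm runs only from 151 to 195.

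Across the 54 tested loops, few members passed in any contrast. D2 against B6 called 0 (2.65% of all tested loops), with 3 at an unadjusted p under 0.05. DESeq2 also called 0 there, but gave no adjusted p for 37 of the 54. B6-13D2 against B6 called 1 (0.879%) and D2 against D2-13B6 called 1 (0.91%), both the contacts inside the Mir290 anchor. The interval effect called 0 (0.989%), with 0 at an unadjusted p under 0.05 by edgeR. DESeq2 called 0 for it as well, with no adjusted p for 48 of the 54, so its count adds little. The background effect called 3 (8.85%), 1 higher (4.28%) and 2 lower (4.57%), and the interaction called 1, lower (0.602% in either direction, 0.548% lower). With 54 tested loops, these counts are near the share over all loops.

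The other strong loops of the Mir290 anchor passed in no contrast. Mir290 to Myadm, the strongest loop between different anchors, with centres 72.5 kb apart, had 181 and 177 CPM in B6 and 170 and 151 CPM in D2. It had 178 and 183 CPM in B6-13D2 and 181 and 195 CPM in D2-13B6. Only the D2 libraries were lower than all others, and D2 against B6 gave -0.16 ± 0.16 (SE; edgeR, FDR = 0.74). AU018091 to Mir290 had 127 and 121 CPM in B6, 122 and 133 CPM in D2 and 157 and 178 CPM in B6-13D2, while D2-13B6 had 148 and 179 CPM. All 4 congenic values lay above all 4 parental ones, and the interaction of -0.80 ± 0.22 (SE; edgeR, FDR = 0.051) missed the threshold. Mir290 to the Cacng7 body lay between 57.7 and 74.6 CPM in all 8 libraries, with an interaction of -0.01 ± 0.29 (SE; edgeR, FDR = 0.998). Mir290 to the anchor at the predicted gene Gm44921 (chr7:3565001-3600000) had 20.7 to 35.4 CPM, lowest in B6-13D2, and no contrast called it.

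A longer contact that differed between backgrounds joined the Mir290 anchor to the start of Cacng6, another calcium channel gamma subunit gene, and of 3300002P13Rik (chr7:3420001-3430000). It had 15 and 5 counts in B6 and 9 and 13 in B6-13D2, against 1 and 3 in D2 and 4 and 6 in D2-13B6. As CPM the D2-background libraries, at 1.2 to 4.3, lay below the B6-background libraries, at 6.6 to 15.4. The background effect was -1.76 ± 0.43 (SE; edgeR, FDR = 0.0014), or 3.39-fold lower on D2 backgrounds. Without B6 replicate 1 it was -1.39 and the call was lost (edgeR, FDR = 0.13), and DESeq2 gave no adjusted p for it. The Cacng6 anchor, summed over all its contacts, was itself lower on D2 backgrounds, with a background effect of -0.71 (edgeR, FDR = 9.1e-06). Its loops to Myadm and to the Cacng7 body gave -0.52 and -0.75 in D2 against B6, neither called. Whether the Mir290 loop differed beyond its partner's other contacts was not tested. The loop from the Cacng7 body to Gm44257 had 21.6 and 17.3 CPM in B6, 37.1 and 26.6 in B6-13D2, 8.3 and 20.9 in D2 and 15.3 and 13.0 in D2-13B6, where D2 replicate 2 overlapped B6. Its background effect was -0.80 ± 0.25 (SE; edgeR, FDR = 0.022), lost without B6 replicate 1, D2 replicate 1, B6-13D2 replicate 1 or D2-13B6 replicate 2, with DESeq2 and with no count minimum.

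When contacts were summed per anchor, calls fell on the Mir290, AU018091 and Gm44257 anchors. The Mir290 anchor had 843 and 754 CPM in B6, 837 and 864 in D2 and 986 and 1025 in B6-13D2, while D2-13B6 had 1054 and 1203. B6 and D2 overlapped, and all 4 congenic libraries were higher. B6-13D2 against B6 gave 0.33 ± 0.11 (SE; edgeR, FDR = 0.045), which was lost in 10 of 15 alternatives, including the replicate block. D2 against D2-13B6 gave -0.41 ± 0.10 (SE; edgeR, FDR = 0.0062), lost with library totals alone and without D2 replicate 1, D2 replicate 2 or D2-13B6 replicate 2. The interaction was -0.74 ± 0.15 (SE; edgeR, FDR = 0.00042) and passed in all 15 alternatives. Among the 672 tested anchors of at least 400 CPM the median interaction was -0.44 and 44.0% were called, so many anchors this strong were called, although the median over all anchors was 0.03. With library totals alone the median over all anchors moved to 0.29 and that of the 6 window anchors from -0.61 to -0.36, with Mir290 at -0.48.

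The AU018091 anchor had 190 and 204 CPM in B6 and 178 and 202 in D2, below 237 and 266 in B6-13D2 and 224 and 276 in D2-13B6. Its interaction was -0.76 ± 0.19 (SE; edgeR, FDR = 0.0064), lost with library totals alone and without D2 replicate 1 or D2-13B6 replicate 2. A majority of its contacts in every library, 56.9% to 70.3%, went to the Mir290 anchor, so the sums of the 2 anchors share counts. The Myadm anchor had 809 and 748 CPM in B6, 707 and 648 in D2 and 817 and 914 in B6-13D2, while D2-13B6 had 823 and 786. D2 was lowest there, B6-13D2 lay above B6, D2-13B6 overlapped both, and no contrast passed; D2 against B6 was -0.20 ± 0.11 (SE; edgeR, FDR = 0.25). The Nlrp12-side anchor ran from 34.1 to 55.4 CPM and the Cacng7 body from 373 to 529 CPM, neither called in any contrast. The Gm44257 anchor had 62.0 and 52.2 CPM in B6, 81.4 and 65.9 in B6-13D2, 31.5 and 51.7 in D2 and 53.0 and 48.6 in D2-13B6. D2-13B6 replicate 1 overlapped B6, and the background effect was -0.50 ± 0.15 (SE; edgeR, FDR = 0.0091), lost with DESeq2 and without B6 replicate 1, D2 replicate 1 or D2-13B6 replicate 2.

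**Figure D3:**
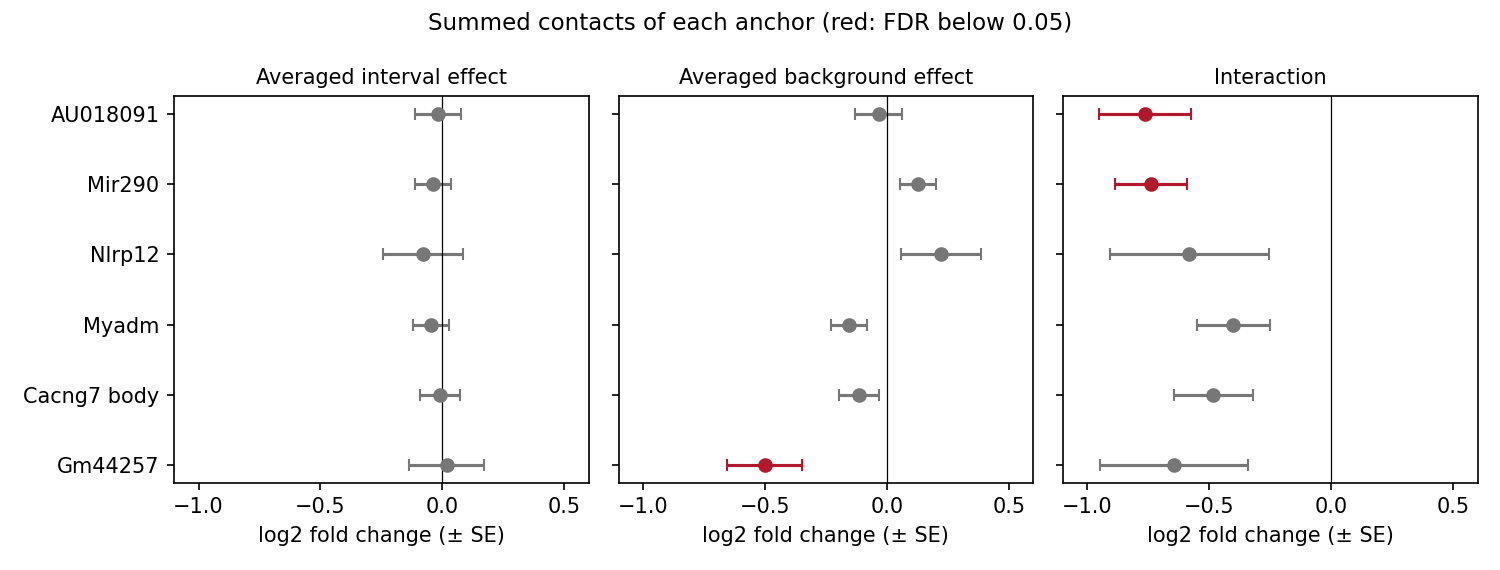
log2 fold change with its standard error for the summed contacts of the 6 tested anchors, in panels for the interval effect, the background effect and the interaction; red marks an FDR below 0.05. No anchor was called for the interval effect, Gm44257 at -0.50 for the background effect, and AU018091 at -0.76 and Mir290 at -0.74 for the interaction.

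Among the 6 tested anchors, D2 against B6 called 0 (11.8% of all anchors), with 1 at an unadjusted p under 0.05 by edgeR and 0 called by DESeq2. B6-13D2 against B6 called 1 (5.22%) and D2 against D2-13B6 called 1 (5.84%). The interval effect called 0 (6.25%), with 0 at an unadjusted p under 0.05 by edgeR and 0 called by DESeq2, which gave no adjusted p for 2 of the 6. The background effect called 1 (24.8%) and the interaction called 2, both lower (4.79% in either direction, 3.73% lower).

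The makeup of the Mir290 anchor's contacts varied between lines. Its own interior took 34.8% and 36.4% of its counts in B6 and 41.1% and 38.0% in D2. The share was 42.0% and 40.2% in B6-13D2 and 46.7% and 49.4% in D2-13B6. B6 was lowest, D2 and B6-13D2 overlapped, and D2-13B6 was highest; the 95% Wilson intervals ran from 31.6% to 38.1% for B6 replicate 1 and from 46.9% to 51.8% for D2-13B6 replicate 2, and cover counting error only. Myadm took 22.0% ± 0.61 (SD, n = 2) in B6 and 17.2% ± 0.54 (SD, n = 2) in D2-13B6, with the means of D2 and B6-13D2 between them; D2, at 19.4% and 16.9%, overlapped D2-13B6. For AU018091 the share lay between 13.8% and 18.2% in all 8 libraries. These shares sum to a whole, so a higher share inside the anchor lowers the others, and they were not tested.

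**Figure D4:**
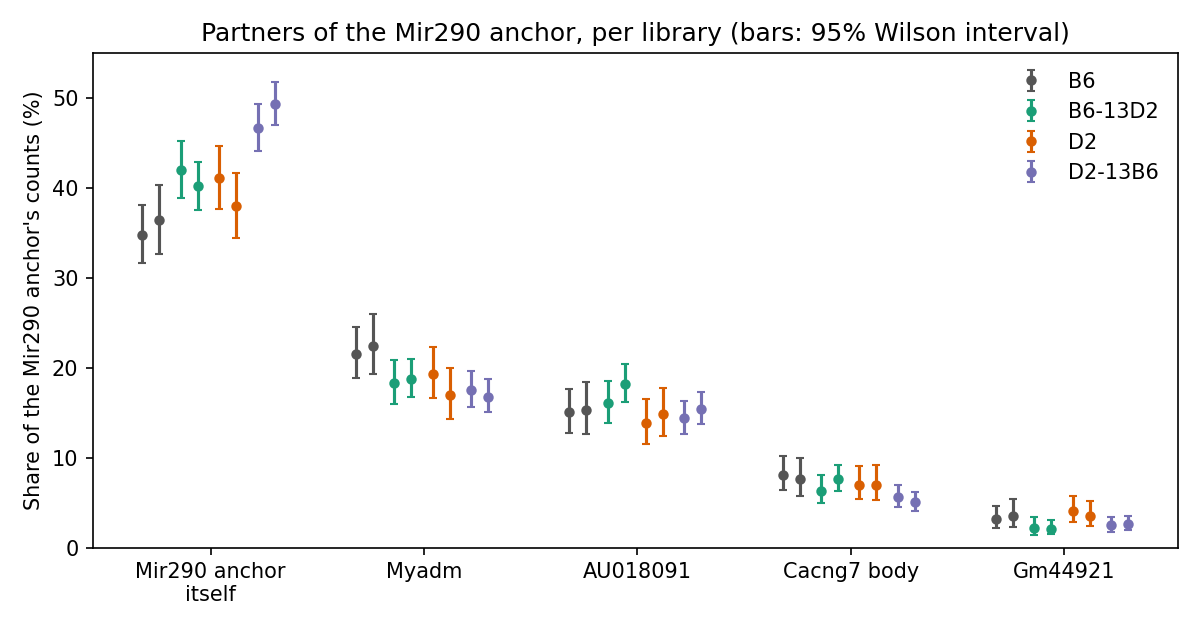
Share of the Mir290 anchor's counts (percent) that join it to itself and to its 4 most counted partners; each point is a library with its 95% Wilson interval, and colours mark the 4 lines. The share inside the anchor runs from 34.8% in B6 replicate 1 to 49.4% in D2-13B6 replicate 2, while the share to Myadm is highest in B6, at 21.6% and 22.4%.

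At 5-kb resolution the bins called for the interaction lay to the left of the microRNA cluster or held its start. Bins called for the background effect lay on both sides of it. In the bin 13.6 to 18.6 kb left of the Mir290a start, whose sequence is shown in part above, the B6 libraries had 125 and 115 CPM. D2 had 194 and 158 CPM, B6-13D2 had 178 and 185 CPM, and D2-13B6 had 232 and 259 CPM. B6 was below all other libraries, D2 and B6-13D2 overlapped, and D2-13B6 was above all. Its background effect was 0.49 ± 0.10 (SE; edgeR, FDR = 5.0e-05) and its interaction was -1.07 ± 0.20 (SE; edgeR, FDR = 0.00011), and both passed in all 15 alternatives. D2 against B6 gave 0.56 ± 0.16 (SE; edgeR, FDR = 0.011), or 1.47-fold higher, lost with DESeq2 and without B6 replicate 2 or D2 replicate 1.

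The next bin (chr7:3205001-3210000) had 82.0 and 75.8 CPM in B6 against 121 and 123 in D2 and 118 and 110 in B6-13D2, while D2-13B6 had 131 and 171. B6 alone was low, and the background effect of 0.51 ± 0.12 (SE; edgeR, FDR = 0.00026) passed in all 15 alternatives. The bin to its right, chr7:3210001-3215000, and the bin that holds the Mir290a start, chr7:3215001-3220000, also had higher values on D2 backgrounds, at 0.32 ± 0.11 (SE; edgeR, FDR = 0.020, lost in 5 of 15 alternatives) and 0.35 ± 0.12 (SE; edgeR, FDR = 0.015, lost in 4). The first of them had 104 and 122 CPM in B6, 147 and 112 in D2 and 162 and 155 in B6-13D2, while D2-13B6 had 186 and 239. Congenic libraries were all above parental ones there, and its interaction of -1.21 ± 0.22 (SE; edgeR, FDR = 3.4e-05) passed in all 15 alternatives. Further left, chr7:3190001-3195000 had 81.0 to 97.7 CPM in the parental and 132 to 150 CPM in the congenic libraries, without overlap, and an interaction of -1.19 ± 0.23 (SE; edgeR, FDR = 0.00016) that also passed in all 15.

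In the Myadm anchor the called bins went the other way. The bin chr7:3275001-3280000 had 139 and 136 CPM in B6 and 143 and 148 in B6-13D2, against 104 and 74.1 in D2 and 119 and 129 in D2-13B6. D2-background libraries were all lower, and the background effect was -0.43 ± 0.11 (SE; edgeR, FDR = 0.0020), lost without D2 replicate 2. At the bin that holds the upstream stretch of Myadm shown above (chr7:3290001-3295000) the libraries ran from 131 to 175 CPM and no contrast called it.

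**Figure D5:**
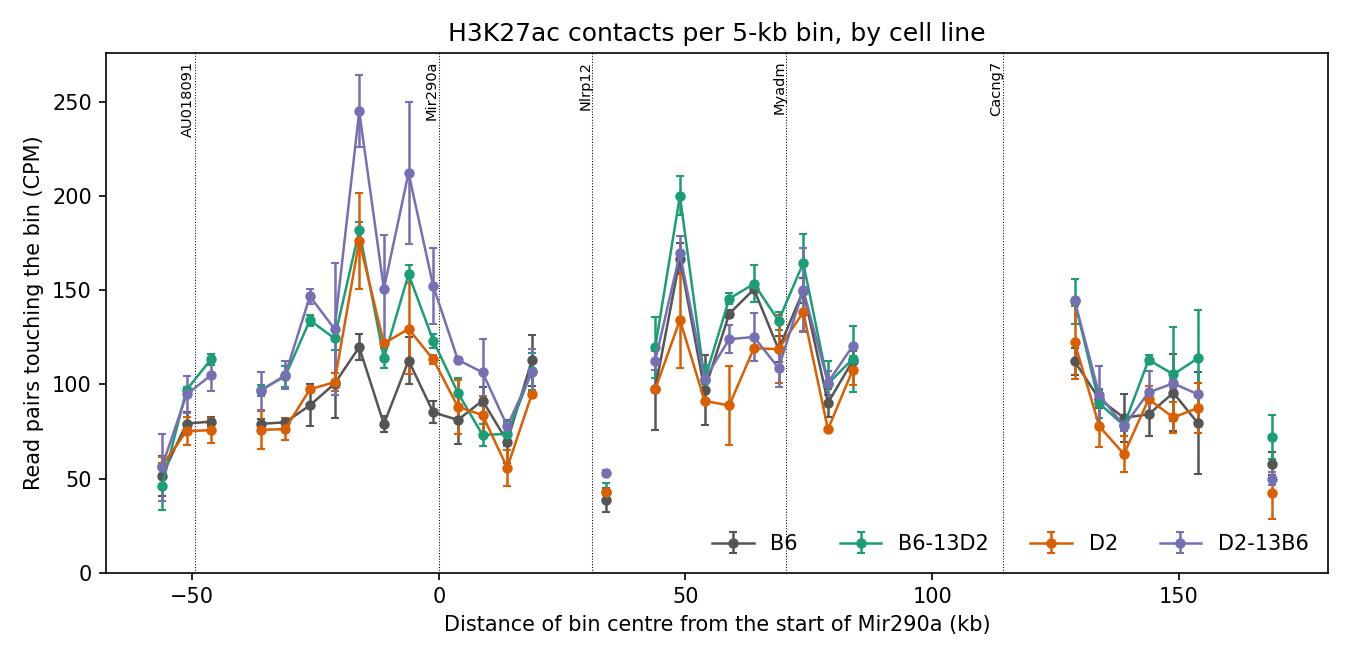
CPM touching each tested 5-kb bin against the distance of its centre from the Mir290a start in kb; points are means and error bars SDs of 2 libraries, colours mark the 4 lines, and dotted lines mark gene starts. D2-13B6 is highest and B6 lowest from 5 to 20 kb left of the cluster start, where the peak bin has means of 120 in B6 and 176 in D2, against 182 in B6-13D2 and 245 in D2-13B6.

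Of the 32 tested bins, D2 against B6 called 3 (9.49% of all bins), 2 higher (4.48%) in the Mir290 anchor and 1 lower (5.01%) in the Myadm anchor. B6-13D2 against B6 called 2, both higher (3.49% in either direction, 2.17% higher), and D2 against D2-13B6 called 3, all lower (5.21% in either direction, 4.12% lower). The interval effect called 0 (4.59%), with 1 at an unadjusted p under 0.05 by edgeR and 0 called by DESeq2. The background effect called 8 (23.9%): 4 higher (11.7%), adjoining bins of the Mir290 anchor, and 4 lower (12.2%), of which 3 lie in the Myadm anchor and 1 is the Gm44257 bin. Of the lower ones, the Myadm bin starting at 3265001 was lost in 8 of 15 alternatives, including the replicate block, and the Myadm bin at 3280001 and the Gm44257 bin at 3385001 in 5 of 15 each. The interaction called 7, all lower (3.79% in either direction, 3.07% lower), 6 in the Mir290 anchor and 1 in the AU018091 anchor. Of these 7, the bin starting at 3185001 was lost in 9 of 14 alternatives, including each that left out a library, and the bin starting at 3205001 in 7 of 15. The median interaction over the 32 bins was -0.55, against 0.02 over all bins. No set of bins of like strength was compared. For anchors, the median was -0.44 with 44.0% called at 400 CPM or more, against 0.03 over all tested anchors. Several of the counts of called bins rested on single libraries. D2 against B6 fell to 1 without any of its 4 libraries and to 0 with DESeq2. B6-13D2 against B6 fell to 0 without B6-13D2 replicate 2 and to 1 without B6 replicate 1 or 2, and D2 against D2-13B6 fell to 0 without D2 replicate 2 or D2-13B6 replicate 2. The background effect fell to 3 without D2-13B6 replicate 2, to 4 without D2 replicate 2 and to 5 without D2 replicate 1 or B6-13D2 replicate 2, and the interaction to 3 without D2 replicate 1 or D2-13B6 replicate 2. Neighbouring bins share read pairs and anchors share their bins, so these are not independent counts.

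Genes known for this super-enhancer or its microRNAs were read at their own anchors, as a description. All 20 regulators listed, among them Pou5f1, Sox2 and Nanog, had an anchor that was tested. The interaction was called lower at 4 of them (3.73% of all anchors) and higher at 0 (1.06%), with a median of -0.30 against 0.03 over all anchors. Examples were -0.59 at Pou5f1, which encodes Oct4, -0.58 at Sox2 and -0.91 at Med1, a Mediator subunit. The background effect was called higher at 5 (11.9%) and lower at 1 (13%), and the interval effect higher at 0 (2.9%) and lower at 1 (3.35%). Of 15 miR-290 target and microRNA processing genes 12 were tested. There the interaction was called lower at 1, Cdkn1a, the cell-cycle inhibitor p21 (-0.70), the background effect higher at 3 and lower at 1, and the interval effect higher at 1 and lower at 1. For genes starting at 3.4 to 5.4 Mb, 50 of 73 had an anchor. Over their 25 tested anchors the interval effect called 0, the background effect 5 higher and 3 lower, and the interaction 1 lower.

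The anchors of chromosome 7 whose log2 CPM over the 8 libraries was most like that of the Mir290 anchor lay at Xpo6 (Pearson r = 0.95), at Gm30928 (0.94), in 2 anchors without a gene start (0.93 and 0.91) and at Ifitm5, Ifitm2 and Ifitm1 (0.90), out of 1305 compared with a median of -0.04. All of them share the same 8 libraries and their depths, so the values describe these libraries only. Xpo6, Gm30928 and the anchor without a gene start at 0.93 lie close together, within chr7:126195001-126355000, and are not separate neighbourhoods.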

How the data were processed

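HiChIP read pairs were aligned with BWA 0.7.18 and SAMtools 1.19.2 to mm10, per the submitters' processing notes, which also name edgeR 3.34.1; the loop caller is not given in the sources used here. The authors deposited counts per loop for the 8 libraries and, per library, counts per pair of 5-kb bins, listed from 10 kb apart. These raw counts were summed per anchor (a loop inside an anchor counted once) and per bin. Features with at least 5 (loops) or 10 (anchors, bins) counts in at least 2 libraries were tested over the whole genome with edgeR 4.0.16 (quasi-likelihood, TMM, 1 mean per line), R 4.3.3, with Benjamini-Hochberg adjustment at 0.05. DESeq2 1.42.0 was an alternative, with other scalings, count minimums, the replicate block and each library left out. In a test on simulated counts for the interval effect, 63% of 2-fold and 96% of 4-fold changed loops were recovered among 44706. The changed loops were drawn only from those with an expected count of at least 10 in an average library. All loops were given 1 common spread. The median tested member loop held 59 counts over the 8 libraries, so recovery at weaker loops was not measured. Gene starts are from GENCODE M21. Named were the window's anchors, its 10 most counted tested loops, the 5 most counted to Mir290, Nlrp12 or Myadm, called loops and bins up to 5 a contrast, and the 5 strongest bins; bins called beyond these are named where counted. Members and lists were chosen with earlier results of these data known. Replicate numbers did not pair the libraries.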

Additional observations from a re-analysis of the deposited data

Results flagged for a closer look

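The results below differ between backgrounds by the interaction term itself, tested with edgeR: the effect of the chromosome 13 interval on the D2 background minus that on the B6 background, on the log2 scale. Contacts inside the Mir290 anchor gave -1.05. The summed contacts of the Mir290 anchor gave -0.74 and those of the AU018091 anchor -0.76. In the AU018091 anchor the bin chr7:3170001-3175000 gave -0.97. In the Mir290 anchor the bins starting at 3185001, 3190001 and 3200001 gave -0.84, -1.19 and -1.07, and those starting at 3205001, 3210001 and 3215001 gave -0.83, -1.21 and -0.96. The call on the AU018091 anchor was lost with library totals alone and without D2 replicate 1 or D2-13B6 replicate 2. The call at 3185001 was lost in 9 of 14 alternatives, that at 3205001 in 7 of 15, and those at 3170001 and 3215001 without D2 replicate 1 or D2-13B6 replicate 2. All 10 values are below 0, so the congenic pair of lines together lay above the parental pair. This does not hold for each line: in the bin starting at 3205001, B6-13D2 (118 and 110 CPM) was below D2 (121 and 123 CPM). The 10 values share read pairs and are not separate observations. They were listed because their interaction was called. Over the genome, 791 of 1016 anchors and 1292 of 1595 bins called for the interaction were lower. Of anchors of at least 400 CPM, 44.0% were called. The congenic libraries were also the deeper ones, and the part of depth was not tested.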

How the results depend on the processing

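Over the alternatives, the 34 called named results kept their direction in each; 389 values stayed past the threshold, 118 did not and 3 had no adjusted p. Counts of member loops called moved as follows. D2 against B6 went from 0 to 1 with the higher count minimum, and B6-13D2 against B6 from 1 to 0 with library totals alone and with the replicate block. The background effect went from 3 to 1 with no count minimum and with DESeq2, which gave no adjusted p for 28 of the 54, and to 4 with RLE size factors, library totals alone and the higher minimum, and the interaction from 1 to 2 with a scaling factor per chromosome and with no minimum. For anchors, B6-13D2 against B6 went from 1 to 0 with library totals, the higher minimum and the replicate block, and to 2 with a factor per chromosome. D2 against D2-13B6 went from 1 to 0 with library totals and to 2 with no minimum, the background effect from 1 to 0 with DESeq2, and the interaction from 2 to 1 with library totals and to 3 with no minimum. For bins DESeq2 called 0 in place of 3 (D2 against B6), 1 in place of 2 (B6-13D2 against B6, 21 of 32 without an adjusted p), 1 in place of 3 (D2 against D2-13B6, 4 without), 3 in place of 8 (background) and 4 in place of 7 (interaction, 16 without). B6-13D2 against B6 rose to 7 bins with a factor per chromosome and to 4 with no minimum. D2 against D2-13B6 fell to 2 bins with library totals and with a factor per chromosome, the background effect to 7 with the replicate block and with a factor per chromosome, and the interaction to 5 with library totals and rose to 8 with no minimum.

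Leaving out each library in turn gave, for loops, 0 to 1 calls in D2 against B6, 0 to 1 in B6-13D2 against B6, 0 to 1 in D2 against D2-13B6, 1 to 4 for the background effect and 1 to 2 for the interaction. For anchors it gave 0 to 1, 0 to 2, 0 to 1 and 1 to 3 in the last 4 of these, and for bins 1 to 3, 0 to 2 and 0 to 3 in the line comparisons in the same order, 3 to 7 (background) and 3 to 8 (interaction). The interval difference of the neighbourhood's share of counts ranged from -0.00645 to 0.00394 percentage points and the background difference from -0.00611 to 0.00405, so their signs are not settled. The interval difference was 0.0396 as a share of chromosome 7 counts and 0.000277 without loops inside an anchor; the background difference was 0.0691 as a share of chromosome 7 counts and -0.00505 without loops inside an anchor (p = 0.343 by the same exact permutation). The causes were not tested. Correlations of same-numbered libraries' deviations between lines were -0.155 to 0.0261, so the block only shares a number. Depth limits the 196 loops that were not tested.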
